A study of Mus musculus with 6 samples.

Results

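The genes described here are the 10 members of the MHC class I loading pathway named by symbol, out of 42256 genes in the count table and 12862 genes with enough counts to be tested. They are the heavy chain genes H2-K1, H2-D1 and H2-T23, the light chain gene B2m, the peptide transporter genes Tap1 and Tap2, the peptide editor genes Tapbp and Tapbpl, the trimming enzyme gene Erap1 and the transactivator gene Nlrc5. All 10 were found in the table and all 10 passed the filter on low counts, so no member is missing from what follows. They were chosen for their role in the pathway and not for their values, although results of these data were known when they were chosen.

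The cells were macrophages grown from the bone marrow of adult male mice, a standard model in which marrow cells mature under a macrophage growth factor in the medium. The tested genotype was CDH11-/- (KO, 3 libraries) and its control was CDH11+/+ (WT, 3 libraries). Cdh11 encodes cadherin-11, an adhesion protein. Both genotypes were on a mixed 129S1/Sv x C57BL/6 background, were grown for 7 days with 20% L929-conditioned medium and 10% FBS, and received no treatment. The labels do not state which part of the gene was deleted or which animal a library came from, and the series' design text mentions 4 KO animals, of which 3 KO libraries are analysed here. The p-values therefore measure the spread between these libraries, which may be technical.

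MHC class I molecules show short peptides from inside the cell to CD8 T cells and to natural killer cells. The proteasome and cytosolic peptidases make the peptides, the TAP1 and TAP2 heterodimer pumps them into the endoplasmic reticulum, and tapasin (Tapbp) with calreticulin and ERp57 holds an empty heavy chain and beta-2 microglobulin next to the transporter until a peptide binds. ERAP1 trims peptides inside the endoplasmic reticulum, and TAPBPR (Tapbpl) exchanges peptides without the transporter. NLRC5 enters the nucleus and acts on class I promoters through the RFX, CREB/ATF and NF-Y proteins, which bind a conserved promoter module with X and Y boxes. In macrophages, interferons are known to induce most of these genes.

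The promoters of the classical heavy chain genes and of B2m are shown because the letters of that module lie in them. RefSeq promoter windows of GRCm38.p6, from 250 bases before to 50 bases after a start site, were matched for 7 of the 10 members. Below are the 250 bases before the start site of the 3 members that hold the letters TGACG (the core of the X2 box) followed by 20 bases of any kind and ATTGG (the Y box). In capitals are these letters, the enhancer A letters, which are the first capitals of H2-K1 and of H2-D1, and matches to 2 forms of the interferon response core. These are GAANNGAAA, found on the opposite strand in H2-K1 and H2-D1, and a longer form with 1 further A before the NN, found in B2m and added to the search after the sequences were seen. The regions are chr17:34000348-34000597 on the minus strand, chr17:35262844-35263093 on the plus strand and chr2:122147437-122147686 on the plus strand.
H2-K1: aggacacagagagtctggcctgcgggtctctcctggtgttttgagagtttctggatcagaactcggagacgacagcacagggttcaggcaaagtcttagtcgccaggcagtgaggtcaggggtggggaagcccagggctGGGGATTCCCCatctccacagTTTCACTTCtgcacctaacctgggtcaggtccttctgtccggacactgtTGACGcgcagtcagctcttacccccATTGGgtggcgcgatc
H2-D1: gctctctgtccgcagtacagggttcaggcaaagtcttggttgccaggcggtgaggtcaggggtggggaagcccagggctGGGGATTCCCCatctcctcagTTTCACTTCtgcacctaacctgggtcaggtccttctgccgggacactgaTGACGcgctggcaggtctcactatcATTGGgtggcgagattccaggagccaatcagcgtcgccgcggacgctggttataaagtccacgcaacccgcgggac
B2m: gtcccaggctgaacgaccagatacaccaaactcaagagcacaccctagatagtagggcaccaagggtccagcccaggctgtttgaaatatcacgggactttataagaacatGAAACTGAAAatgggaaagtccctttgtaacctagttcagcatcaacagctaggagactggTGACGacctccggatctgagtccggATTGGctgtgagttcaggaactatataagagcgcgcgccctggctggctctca

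The pair of boxes with this spacing was rare among promoters. Searched on both strands, it was found in 31 of 32851 windows (0.0944%), which belong to 27 of 27025 genes, and H2-K1, H2-D1, B2m and the further heavy chain gene H2-M3 were among them. The X2 letters on their own were in 20.8% of windows and the Y letters in 37.4%; both overlap the pair by construction. The shorter interferon response core was in 7.52% of windows and the longer form in 3.44%; the longer form also matched in the windows of H2-T23 and Erap1. The enhancer A letters were in 10 windows (0.0304%). Counted from the start site, the pair lay at -41 to -12 in H2-K1, at -101 to -72 in H2-D1 and at -78 to -49 in B2m. The windows of H2-T23, Tap1, Tapbp and Erap1 held no such pair in these letters. The letters and the spacing were chosen with these sequences in view, so the shares describe how common the letters are and no more. RefSeq and GENCODE place the start of Tapbp 3579 bases apart, and that of H2-D1 364 bases apart, so another start would have another window.

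**Figure D1:**
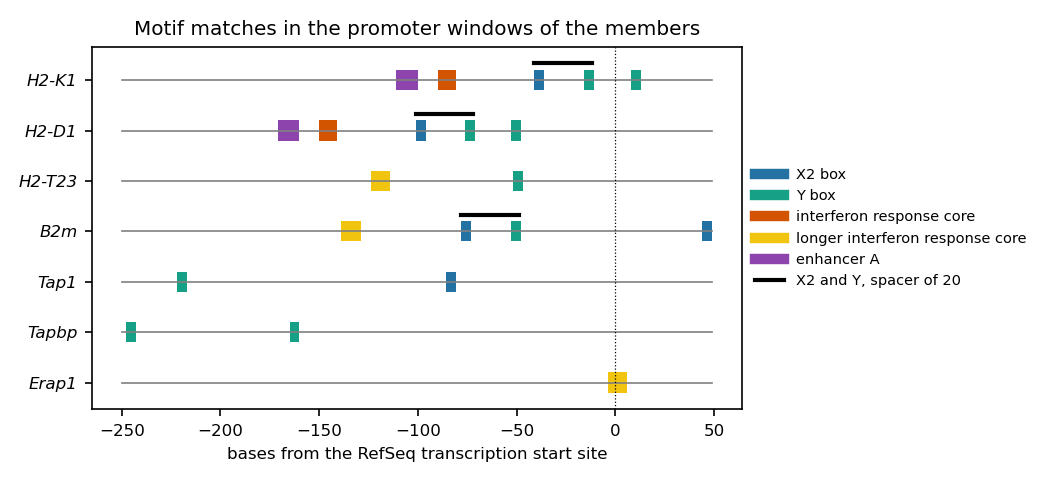
Matches to the 5 motifs and to the X2 and Y pair in the RefSeq promoter windows of 7 members, drawn to scale as bases from the start site (horizontal axis), 1 gene a row. H2-K1 and H2-D1 carry enhancer A, the shorter interferon core and the pair in the same order, and B2m carries the longer interferon core before the pair.

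The libraries held 28193880, 28967368 and 30122204 counts in KO and 37113689, 27170943 and 28985052 counts in WT. Libraries KO 2 and WT 2 stood apart in interferon-stimulated genes. KO 2 was the lowest of the 6 libraries in 28 of 30 such genes and in 28.5% of all genes tested, and WT 2 was the highest in 30 of 30 and in 23.1% of all genes. Of 12862 genes tested, 2375 rose in KO (18.5%) and 2157 fell (16.8%), so 52.4% of the called genes were higher, or 64.4% with upper quartile scaling, which moved the median of all genes by 0.06 on the log2 scale. The words rose, fell and called are used where the adjusted p over all genes tested was under 0.05 (edgeR's quasi-likelihood test, Benjamini-Hochberg method). Cdh11 itself was close to the limit of detection, with 6, 4 and 5 counts in KO and 6, 11 and 6 counts in WT, and does not check the labels. The 8 macrophage markers summed to 19540 to 25240 CPM (counts scaled to a common library size) in KO libraries and 31030 to 33590 CPM in WT libraries. Of these markers 1 rose and 3 fell. Most of the sum came from Lyz2, with 13040 to 18120 CPM in KO and 22770 to 24780 CPM in WT. Csf1r, Mertk and Cd14 were also lower in every KO library than in any WT library. Cd68 was higher in every KO library, and Adgre1, Fcgr1 and Itgam overlapped. In such bulk samples, fewer cells of a type and less RNA per cell cannot be told apart. Markers of dendritic cells summed to at most 2.86 CPM in KO and 2.64 CPM in WT, and those of T and NK cells to at most 17.6 CPM in KO and 18.4 CPM in WT. Nearly all of the T and NK cell sum came from Cd4, with 9.99 to 16.8 CPM in KO and 12.9 to 17.8 CPM in WT. Markers of neutrophils and their precursors, which carry class I as well, summed to 39.9 to 114.7 CPM in KO and 33.5 to 86.4 CPM in WT, and 0 of 7 tested were called. The B cell list summed to 48.8 to 76.8 CPM in KO and 106.0 to 130.9 CPM in WT, nearly all of it from Ighm, and 1 of 2 tested fell. The megakaryocyte list summed to 177 to 281 CPM in KO and 167 to 243 CPM in WT, and 2 of 3 tested rose. Nearly all of that sum came from Pf4, which overlapped between the genotypes. The part of these other cells in the results below was not tested.

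Of the class I loading genes, Nlrc5 was the one that passed the test, and it was lower in KO macrophages. Of the 10 members 0 rose and 1 fell (10.0%), where 16.8% of all genes fell and 35.2% were called in either direction. DESeq2 called 3 members lower, beside 17.7% of all genes, and limma-voom 1, beside 17.0%. In edgeR 3 of the 10 had an unadjusted p under 0.05 with a negative sign and 1 with a positive sign. The median log2 fold change of the 10 was -0.28, beside 0.00 for all genes tested, and 9 of the 10 estimates were negative. In 5 members every KO library lay below every WT library (26.4% of all genes did so), and in 1 every KO library lay above (27.0%). KO 2 was the lowest library in 9 of the 10 members and WT 2 the highest in 8. Without WT 2 the median log2 fold change was -0.12 and 2 members were called lower, Nlrc5 and Tapbpl, beside 1160 of 13103 genes. Without WT 3, 2 members were called lower, beside 1653 of 13120 genes. Without WT 1, 1 member was called lower, beside 942 of 13073 genes. Called lower were 0 members without KO 1, KO 2 or KO 3, beside 2665 of 13088, 1293 of 13054 and 1057 of 13051 genes. The interferon genes that move with WT 2 are given below; their part in the members' differences was not tested.

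**Figure D2:**
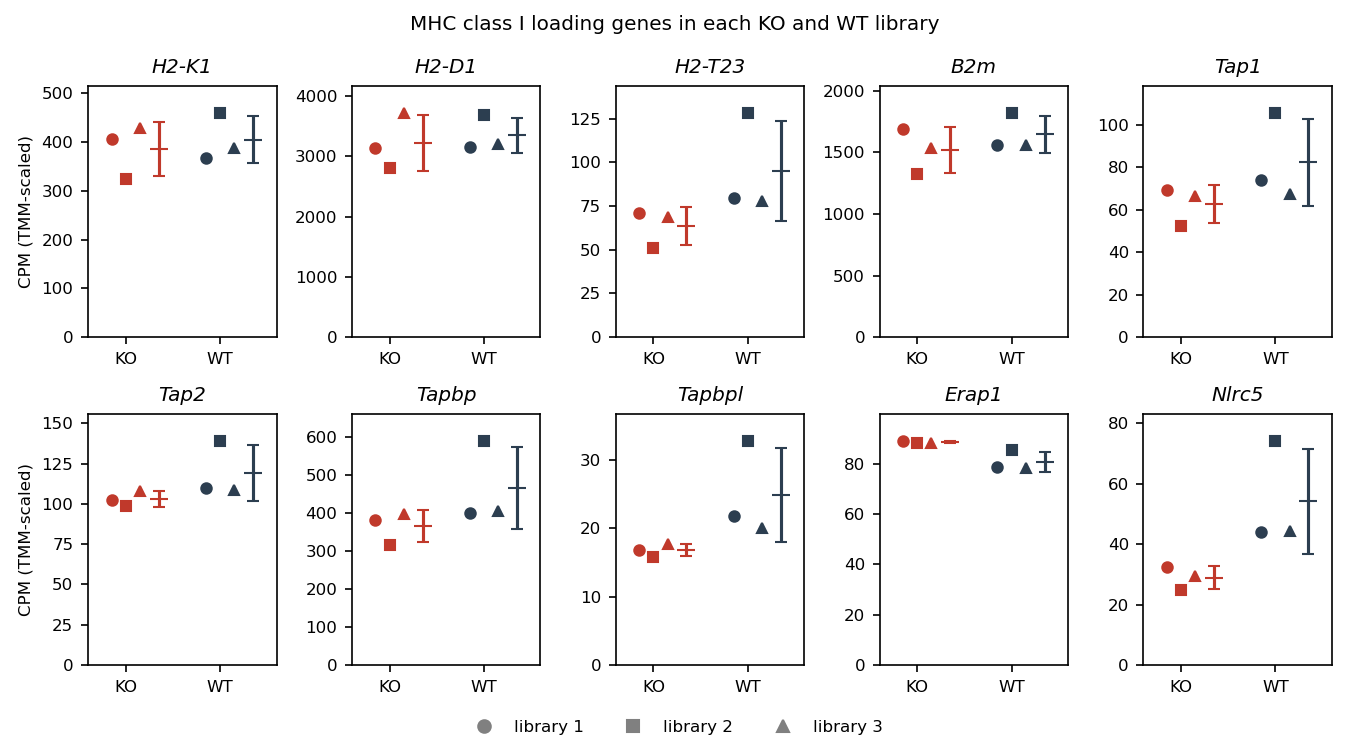
CPM (library-scaled counts by TMM, linear axes from 0) of each member in the 3 KO libraries (left, red) and the 3 WT libraries (right, dark), with marker shapes for libraries 1 to 3 of a genotype and bars for the mean ± SD. WT 2, the dark square, is the highest point for 8 of the 10 genes, and the Nlrc5 points of KO lie between 24.8 and 32.4 CPM, below the lowest WT point at 44.0 CPM.

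Per kilobase of exon (RPKM, which is CPM over exon length), the 10 genes spanned a wide range of levels, in which the light chain and H2-D1 were far above the machinery that loads them. B2m averaged 1766 ± 214 RPKM in KO and 1915 ± 174 RPKM in WT, and H2-D1 1249 ± 179 RPKM in KO and 1298 ± 114 RPKM in WT (SD, n = 3 each, as for all means below). H2-K1 followed at 132 ± 18.9 RPKM in KO and 138 ± 16.5 RPKM in WT, then Tapbp at 101 ± 11.8 RPKM in KO and 128.5 ± 29.8 RPKM in WT; in WT these neighbours lie within each other's spread. Tap2 had 27.3 ± 1.27 RPKM in KO and 31.6 ± 4.57 RPKM in WT, and H2-T23 had 22.04 ± 3.75 RPKM in KO and 32.97 ± 9.92 RPKM in WT, so their order differs between the genotypes and is within the spread in WT. Erap1, at 12.2 ± 0.0625 RPKM in KO and 11.1 ± 0.552 RPKM in WT, and Tap1, at 11.5 ± 1.65 RPKM in KO and 15.03 ± 3.73 RPKM in WT, were also close. Tapbpl had 7.14 ± 0.387 RPKM in KO and 10.6 ± 2.95 RPKM in WT. Nlrc5 was the lowest of the 10, at 3.404 ± 0.452 RPKM in KO and 6.38 ± 2.05 RPKM in WT. By mean CPM, H2-D1 ranked 15 and B2m 40 among the 12862 genes, and Nlrc5 ranked 4639.

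For the classical heavy chain transcripts no difference between the genotypes was detected. H2-D1, which encodes the D heavy chain (ENSMUSG00000073411, GRCm38 chromosome 17, 35262730 to 35267499, plus strand), had 3133, 2809 and 3718 CPM in KO, against 3146, 3683 and 3210 CPM in WT. KO 3 was the highest and KO 2 the lowest of the 6 libraries, so the genotypes overlapped. The log2 fold change was -0.06 (SE 0.12, 95% interval -0.33 to 0.22, adjusted p = 0.739). H2-K1, the K heavy chain gene (ENSMUSG00000061232, chromosome 17, 33996017 to 34000347, minus strand), had 406, 324 and 429.5 CPM in KO, against 367.5, 460 and 388 CPM in WT. Here too the genotypes overlapped, with a log2 fold change of -0.07 (SE 0.13, 95% interval -0.37 to 0.23, adjusted p = 0.702). Without KO 2 the estimates turned to 0.03 for H2-D1 and 0.045 for H2-K1, and without WT 2 to 0.01 for H2-D1 and 0.03 for H2-K1. Upper quartile scaling also turned that of H2-D1, to 0.004.

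H2-T23, the nonclassical heavy chain gene for Qa-1, which natural killer cells and some T cells read through the receptor NKG2A (ENSMUSG00000067212, chromosome 17, 36029773 to 36032855, minus strand), had 71.0, 51.2 and 68.8 CPM in KO, against 79.6, 128 and 77.8 CPM in WT. Every KO library lay below every WT library, and WT 2 was far above the other two. The log2 fold change was -0.58 (SE 0.23, 95% interval -1.13 to -0.03), but the adjusted p of 0.0936 missed the threshold in edgeR, while DESeq2 gave 0.0189. The estimate without WT 2 was -0.31 (adjusted p = 0.169). H2-T23 overlaps A930015D03Rik, an antisense gene of 1.80 CPM on average.

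Because heavy chain genes are near-identical copies in part and the authors' counting could split their reads, the counts of 17 heavy chain rows were also summed. The sum was 4108, 3591 and 4777 CPM in KO, against 4081, 4930 and 4176 CPM in WT. It had a log2 fold change of -0.08 (SE 0.13, 95% interval -0.37 to 0.21, adjusted p = 0.643), which was 0.02 without KO 2 and 0.005 without WT 2. H2-D1 supplied 74.7 to 78.2% of this sum in each of the 6 libraries.

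B2m, the light chain shared by all class I molecules (ENSMUSG00000060802, chromosome 2, 122147686 to 122153083, plus strand), had 1692, 1326 and 1539 CPM in KO, against 1561, 1820 and 1560 CPM in WT. KO 1 lay above WT 1 and WT 3, so the genotypes overlapped. The log2 fold change was -0.12 (SE 0.11, 95% interval -0.37 to 0.14, adjusted p = 0.430). The ratios between the chains overlapped as well. H2-D1 had 1.85, 2.12 and 2.42 counts per B2m count in KO libraries, against 2.02, 2.02 and 2.06 in WT libraries, and H2-K1 had 0.240, 0.244 and 0.279, against 0.235, 0.2525 and 0.249. On the log2 scale KO minus WT was 0.06 for H2-D1 to B2m, 0.05 for H2-K1 to B2m and 0.01 for H2-D1 to H2-K1, each with overlapping genotypes (two-sided exact permutation p = 0.7, 0.7 and 0.8; adjusted over 8 ratios 0.8 for each). With 3 against 3 libraries such a test cannot go below 0.1.

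The peptide transporter and the editors all had lower estimates in KO, none past the threshold. Tap1, a subunit of the transporter (ENSMUSG00000037321, chromosome 17, 34187553 to 34197225, plus strand), had 69.4, 52.5 and 66.4 CPM in KO, against 73.8, 106 and 67.5 CPM in WT. KO 1 lay above WT 3, so the genotypes overlapped, and the log2 fold change was -0.39 (SE 0.19, adjusted p = 0.157). Tap2, its partner (ENSMUSG00000024339, chromosome 17, 34203527 to 34216321, plus strand), had 102, 98.7 and 108.2 CPM in KO, against 110.1, 139 and 108.6 CPM in WT. KO lay below WT, by less than 1 CPM between KO 3 and WT 3, with a log2 fold change of -0.21 (SE 0.10, adjusted p = 0.147). Tap1 counts per Tap2 count were 0.6775, 0.532 and 0.613 in KO, against 0.671, 0.7585 and 0.622 in WT, and overlapped (exact permutation p = 0.3, adjusted 0.48). Leaving out WT 2 gave estimates of -0.18 for Tap1 and -0.09 for Tap2.

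Tapbp, tapasin (ENSMUSG00000024308, chromosome 17, 33915899 to 33929292, plus strand), had 383, 317 and 398 CPM in KO, against 402, 591 and 406 CPM in WT. Every KO library lay below every WT library, although KO 3 was close to WT 1 and WT 3, with a log2 fold change of -0.35 (SE 0.17, adjusted p = 0.151), or -0.15 without WT 2. Tapbp shares 3422 bases with Zbtb22 on the same strand, a gene of 48.5 CPM on average, so part of its counts is uncertain.

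Tapbpl, the tapasin-related editor (ENSMUSG00000038213, chromosome 6, 125223933 to 125231860, minus strand), came closest to the threshold after Nlrc5. It had 16.9, 15.9 and 17.7 CPM in KO, against 21.8, 32.8 and 20.1 CPM in WT. The KO libraries were tightly grouped and all lay below WT, with a log2 fold change of -0.56 (SE 0.19, 95% interval -1.01 to -0.12, adjusted p = 0.0549). It was called lower without WT 2, at -0.32 (adjusted p = 0.0492), without WT 3 (0.0328), by DESeq2 (0.0132) and with the gene-specific factors of the deposited normalized values as offsets (0.0477), which called 2 members and 13.7% of all genes lower. Tapbpl lies over its whole length opposite Vamp1 (16.5 CPM on average), and the sources used here do not give the strand setting of the counting; reads of this pair may therefore be mixed. Its ratio to Tapbp differed by -0.20 on the log2 scale with overlapping genotypes (exact permutation p = 0.2, adjusted 0.4).

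Erap1, the aminopeptidase that shortens peptides to the length that class I holds (ENSMUSG00000021583, chromosome 13, 74639568 to 74693201, plus strand), was the only member with a higher estimate in KO. It had 89.3, 88.5 and 88.5 CPM in KO, against 78.6, 85.4 and 78.3 CPM in WT. All KO libraries lay above all WT libraries, by 3 CPM or more, and the spread was small. The log2 fold change was 0.14 (SE 0.06, 95% interval 0.006 to 0.27), and the adjusted p of 0.0927 missed the threshold; with upper quartile scaling it was 0.20 on the log2 scale with an adjusted p of 0.0293. Erap1 overlaps 834 bases of Cast on the opposite strand (117 CPM on average).

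Nlrc5, the class I transactivator (ENSMUSG00000074151, chromosome 8, 94434356 to 94527272, plus strand), fell in KO. It had 32.4, 24.8 and 29.6 CPM in KO, against 44.0, 74.3 and 44.3 CPM in WT, from 722 to 922 counts a library in KO and 1286 to 1968 in WT. The highest KO library lay below the lowest WT library, and WT 2 was far above WT 1 and WT 3, which were close to each other. The mean was 28.9 ± 3.84 CPM in KO and 54.2 ± 17.4 CPM in WT, or 53.3% of WT, with a log2 fold change of -0.90 (SE 0.23, 95% interval -1.46 to -0.35, adjusted p = 0.0273). Without WT 2 the fall was smaller, at -0.62, and still passed (adjusted p = 0.0267). The call was lost without any KO library in turn: adjusted p was 0.0590 without KO 1, 0.106 without KO 2 and 0.0761 without KO 3, with estimates of -0.99, -0.81 and -0.93. It was also lost with no filter on low counts (-0.91, adjusted p = 0.101). The deposited factors that turn counts into normalized values departed from the library median by up to 20.2% for Nlrc5, in KO 1, against 0.749 to 12.9% for the other members, and with these factors as offsets its fall was -1.10 (adjusted p = 0.0159).

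Nlrc5 lies on the same chromosome as the deleted gene, 8.1 Mb from Cdh11. Of 150 tested genes within 10 Mb of Cdh11, 58 were called (38.7%), 22 lower and 36 higher, against 35.2% of all genes. Nlrc5 itself is in this window, and 4 of its genes, Nlrc5 included, had a fall at least as large as that of Nlrc5. The share of all tested genes with such a fall was not counted. On a mixed background, the deletion and a linked stretch of chromosome cannot be told apart in this design. Of the other members, 6 lie within 2.12 Mb of chromosome 17, and B2m, Tapbpl and Erap1 lie on chromosomes 2, 6 and 13.

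The genes whose profile over the 6 libraries was most like that of a member were found as those with the smallest root mean square difference of log2 CPM, each centred on its own mean. For Nlrc5, whose own profile spanned 1.58, the nearest were Irgm1 (0.055), Ddx58 (0.066), Parp14 (0.074), Herc6 (0.077) and 1600014C10Rik (0.083). Irgm1 encodes an immunity-related GTPase and Ddx58 the RNA sensor RIG-I. Irgm1 had 75.7, 60.9 and 70.7 CPM in KO, against 104.3, 174 and 96.0 CPM in WT. Among the members, H2-T23 (0.166, rank 63) and Tapbpl (0.196, rank 107) were the nearest to Nlrc5, and H2-K1 and H2-D1 were far from it (ranks 3288 and 3918).

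For Tap1 the nearest were Oplah (0.054), Adar (0.056), Ogfr (0.065), Irak2 (0.067) and the complement gene C1qa (0.069), with Tapbp at 0.063 as the nearest member. For H2-K1 they were Runx2 (0.032), H2-Q4 (0.035), 4933421O10Rik (0.039), Gm10499 (0.044) and Sft2d3 (0.045), with H2-D1 at 0.062 and B2m at 0.079 the nearest members. H2-Q4 and Gm10499, a pseudogene, are on chromosome 17 as H2-K1 is, and class I copies may share reads. H2-K1, H2-D1 and B2m thus had like profiles, as a description over 6 libraries that share their depth and scaling. The profile of H2-K1 spanned only 0.5, so other genes with little change also lie close to it. Runx2, its nearest gene, was not among the genes found with the pair of boxes. A link between the promoter letters and the profiles was not tested.

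Of the further class I heavy chains, few passed the test, and 10 of the 12 tested had a negative estimate. Of 14 listed, 12 were tested (H2-T3 and H2-M5 were too low), and 1 rose and 2 fell (25.0% called, beside 35.2% of all genes), with a median log2 fold change of -0.12. H2-T22, a nonclassical chain, had 6.60, 5.46 and 6.21 CPM in KO, against 7.66, 10.5 and 7.65 CPM in WT, and fell (log2 fold change -0.50, SE 0.16, adjusted p = 0.0455). H2-M3, which presents formylated peptides, had 43.2, 39.4 and 44.2 CPM in KO, against 48.1, 53.9 and 49.9 CPM in WT, and fell by 0.26 on the log2 scale (SE 0.07, adjusted p = 0.0265). H2-M2 was low, with 3.09, 3.26 and 7.97 CPM in KO, against 0.830, 1.40 and 1.48 CPM in WT, and rose (log2 fold change 1.96, SE 0.45, adjusted p = 0.0183). The H2-Q genes of the list were not called. Without WT 2, without WT 1 or with upper quartile scaling none of the falls was called, and none without KO 2 or KO 3; limma-voom called 1 and DESeq2 4. The rise of H2-M2 was not called without WT 1 or WT 2. H2-T24, named after its values were seen, had 27.1, 12.3 and 19.8 CPM in KO, against 42.3, 91.2 and 31.6 CPM in WT (log2 fold change -1.48, adjusted p = 0.0501).

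Of 5 chains that resemble class I but do other work, 3 fell and 1 rose (80.0% called, beside 35.2% of all genes). Hfe, the iron regulator mutated in human haemochromatosis, had 73.7, 53.6 and 57.3 CPM in KO, against 115, 118 and 96.2 CPM in WT, and fell by 0.83 on the log2 scale (SE 0.14, adjusted p = 0.00744). Fcgrt, the heavy chain of the neonatal Fc receptor, which salvages IgG and albumin, had 174, 117 and 149.5 CPM in KO, against 260, 262 and 216 CPM in WT, and fell by 0.74 in log2 (SE 0.15, adjusted p = 0.0129). Mr1, which presents vitamin B metabolites to MAIT cells, had 13.1, 10.3 and 12.5 CPM in KO, against 19.1, 17.2 and 19.3 CPM in WT, and fell by 0.63 in log2 (SE 0.11, adjusted p = 0.00727). In these 3 genes WT 2 did not stand apart from the other WT libraries. Procr, the endothelial protein C receptor, had 5.58, 12.5 and 10.5 CPM in KO, against 3.62, 4.60 and 3.03 CPM in WT, and rose (log2 fold change 1.35, SE 0.31, adjusted p = 0.0192). Hfe, Fcgrt and Mr1 products all pair with beta-2 microglobulin, and that of Procr does not. The Procr call was lost without KO 2, KO 3, WT 1 or WT 3.

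The endoplasmic reticulum chaperones that fold and hold class I rose in part. Of 8 tested, 4 rose and 0 fell, beside 18.5% of all genes that rose, and the median was 0.23 on the log2 scale. Calr, calreticulin, which bridges the heavy chain and tapasin, had 1135, 1422 and 1277 CPM in KO, against 863, 848 and 854.5 CPM in WT, and rose (log2 fold change 0.58, SE 0.09, adjusted p = 0.00637). Pdia3, the ERp57 partner of tapasin, averaged 555 ± 36.7 CPM in KO and 461 ± 4.82 CPM in WT and rose by 0.27 in log2 (SE 0.07, adjusted p = 0.0205). Pdia6 and Hsp90b1, which act on many secretory proteins, rose by 0.42 and 0.31 in log2. Canx, calnexin, which holds the free heavy chain, averaged 591 ± 7.07 CPM in KO and 606 ± 12.5 CPM in WT (log2 fold change -0.04, SE 0.06, adjusted p = 0.631). Without WT 1, WT 2 or WT 3, 2 of the 8 were called higher, beside 1037, 1327 and 2026 of all genes.

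**Figure D3:**
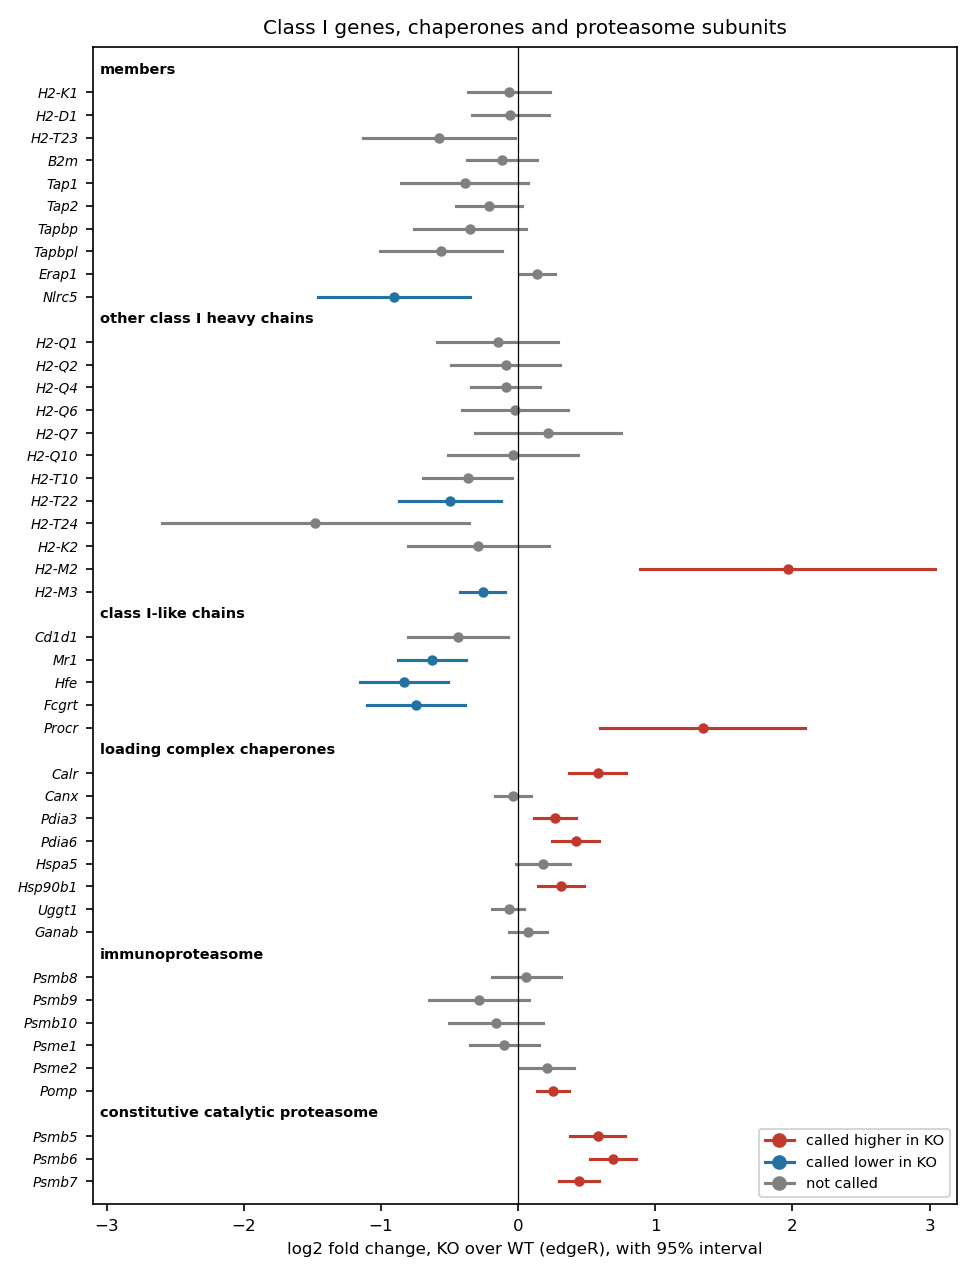
Log2 fold change of KO over WT with its 95% interval (edgeR) for the tested genes of 6 lists, 1 gene a row; red marks genes called higher in KO, blue genes called lower and grey genes not called. The intervals of H2-K1, H2-D1 and B2m straddle 0, Nlrc5 lies at -0.90, and Calr and the constitutive proteasome subunits lie to the right of 0.

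Of the proteasome's catalytic subunits, the constitutive set rose, 3 of 3 beside 18.5% of all genes, and the set induced by interferon did not pass the test. Psmb6 had 144, 166 and 161 CPM in KO, against 102, 94.99 and 94.3 CPM in WT (log2 fold change 0.69, SE 0.07, adjusted p = 0.00417). Psmb5 had 93.0, 117.5 and 108.7 CPM in KO, against 71.2, 71.7 and 70.6 CPM in WT (0.58, SE 0.09, adjusted p = 0.00615), and Psmb7 rose by 0.44 in log2 (SE 0.06, adjusted p = 0.00559). All 3 stayed called without each library in turn. The immunoproteasome subunits that replace them had log2 fold changes of 0.06 for Psmb8, -0.29 for Psmb9 and -0.16 for Psmb10, each with overlapping genotypes, and WT 2 was the highest library in all 3. Of the 6 genes of the immunoproteasome list, 1 rose (16.7%, near the 18.5% of all genes), the assembly factor Pomp (log2 fold change 0.25, SE 0.05, adjusted p = 0.0110). Without WT 2, 2 of the 6 were called higher, beside 1327 of all genes. Tap1 overlaps Psmb9 by 212 bases on the opposite strand.

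The ratio of an induced subunit to the constitutive subunit it replaces does not depend on how libraries are scaled. Psmb8 counts per Psmb5 count were 1.52, 1.18 and 1.36 in KO, against 1.79, 2.25 and 1.72 in WT. For Psmb9 to Psmb6 the ratio was 0.3105, 0.225 and 0.251 in KO, against 0.456, 0.648 and 0.436 in WT. For Psmb10 to Psmb7 it was 0.932, 0.744 and 0.847 in KO, against 1.10, 1.63 and 1.11 in WT. Psmb10 lies on chromosome 8 (105935735 to 105938444), inside the window of 10 Mb around Cdh11 (102632095 to 102785642). For Psmb10, as for Nlrc5, the deletion and a linked stretch of chromosome cannot be told apart. In each pair every KO library lay below every WT library, and the differences were -0.50, -0.96 and -0.59 on the log2 scale. Among single genes 26.4% lay so, and the share over other ratios was not counted. The constitutive subunits in the denominators were called higher in KO, while the induced subunits were not called and overlapped between the genotypes. The two-sided exact permutation p was 0.1 for each, the smallest that 3 against 3 libraries allow, and 0.267 after adjustment over 8 ratios, so none passed a threshold. Leaving out WT 2 gave differences of -0.38, -0.78 and -0.40.

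**Figure D4:**
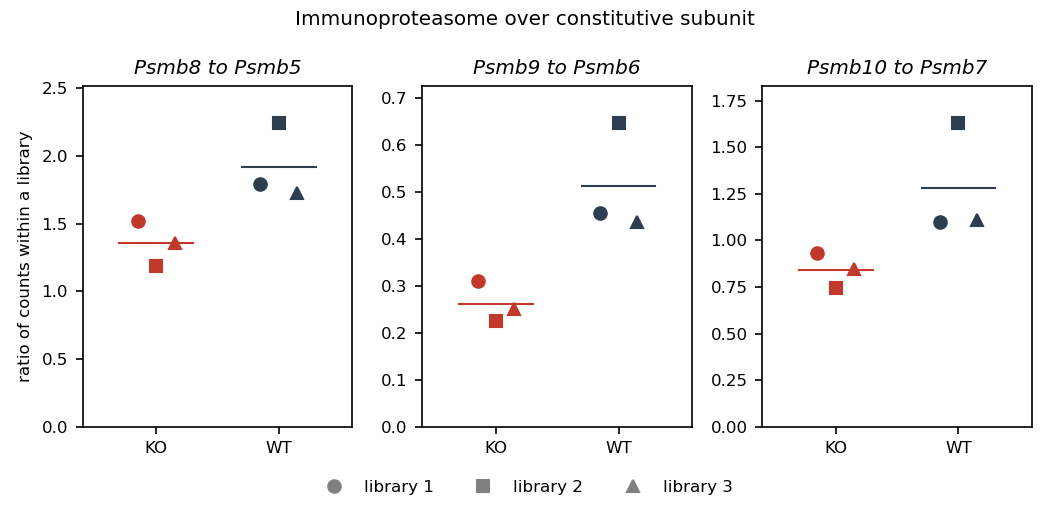
Counts of an immunoproteasome subunit per count of the constitutive subunit it replaces, in each KO library (left, red) and WT library (right, dark), with lines at the mean of a genotype and linear axes from 0. In all 3 panels the KO points lie below the WT points, and WT 2, the dark square, is the highest. The constitutive subunits were called higher in KO and the immunoproteasome subunits were not called.

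Cytosolic peptidases, which trim or destroy peptides before transport, changed in 5 of 8 genes, 4 higher and 1 lower (62.5% called, beside 35.2% of all genes). Prep, prolyl oligopeptidase, had 68.1, 84.1 and 79.8 CPM in KO, against 46.7, 48.0 and 53.7 CPM in WT, and rose (log2 fold change 0.64, SE 0.09, adjusted p = 0.00580). Thop1, thimet oligopeptidase, which destroys many class I ligands, had 19.6, 27.9 and 23.8 CPM in KO, against 15.1, 14.5 and 16.3 CPM in WT, and rose (0.63, SE 0.13, adjusted p = 0.0120). Lap3, leucine aminopeptidase, and Nrdc, nardilysin, rose by 0.22 and 0.19 in log2, and Npepps, the puromycin-sensitive aminopeptidase, fell by 0.20. Called higher were 2 without KO 2, KO 3 or WT 2, beside 1426, 1322 and 1327 of all genes, and 1 without WT 1, beside 1037. The fall of Npepps was not called without KO 2, KO 3 or any WT library.

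Of the 14 factors that act on class I promoters, 0 rose and 5 fell (35.7%), beside 16.8% of all genes that fell, and the median log2 fold change was -0.18. Irf1, an interferon-induced activator, had 92.0, 71.2 and 78.1 CPM in KO, against 120, 170.1 and 112 CPM in WT, and fell by 0.74 in log2 (SE 0.18, adjusted p = 0.0227). Rfx5, a subunit of the RFX complex, had 16.8, 12.5 and 14.5 CPM in KO, against 21, 22.4 and 21.3 CPM in WT, and fell by 0.56 in log2 (SE 0.11, adjusted p = 0.00992). The other RFX subunits, Rfxank (-0.19, adjusted p = 0.143) and Rfxap (-0.01, adjusted p = 0.897), were not called. Nfkb1 and Irf8, further regulators, fell by 0.36 and 0.30 in log2, and Creb1, of the family that binds the X2 letters, fell by 0.28. Called lower were 1 of the 14 without KO 2 or KO 3, beside 1293 and 1057 of all genes. Without WT 1 or WT 2, 2 were called lower, beside 942 and 1160 of all genes. Of 19 tested genes with the pair of boxes in a promoter window, 4 rose and 3 fell, with a median log2 fold change of -0.06. The share called (36.8%) was near that of 9506 tested genes with a window and no pair (37.0%). It was also near the 35.2% of all genes. These genes were found by letters alone, and whether the factors act on them was not tested.

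Genes of cross-presentation, by which phagocytes load class I with engulfed proteins, changed in 4 of 12, with 2 higher and 2 lower, a share (33.3%) near the 35.2% of all genes. Cybb, the NADPH oxidase subunit that limits acidity in phagosomes, had 1142, 728 and 963 CPM in KO, against 1403, 1731 and 1395 CPM in WT, and fell by 0.68 in log2 (SE 0.17, adjusted p = 0.0254). Snap23, a membrane fusion protein, averaged 159 ± 19.2 CPM in KO and 210 ± 6.74 CPM in WT and fell by 0.40 in log2 (SE 0.09, adjusted p = 0.0154). Ifi30, the lysosomal thiol reductase GILT, averaged 93.6 ± 19.9 CPM in KO and 66.1 ± 5.57 CPM in WT and rose by 0.50 in log2 (SE 0.16, adjusted p = 0.0491), with overlapping genotypes. Sec61b, a subunit of the translocon, rose by 0.29 in log2 (SE 0.06, adjusted p = 0.0113). Called higher was 1 of the 12 without KO 2, KO 3 or any WT library, beside 1037 to 2026 of all genes. Called lower were 0 without KO 3, WT 1 or WT 2, beside 1057, 942 and 1160 of all genes.

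Interferon-inducible genes outside the pathway were mostly lowest in KO 2 and highest in WT 2, as were 8 of the 10 members, all but H2-D1 and Erap1. Of 30 interferon-stimulated genes 0 rose and 8 fell (26.7%, beside 16.8% of all genes), with a median log2 fold change of -0.96, and 30 of 30 estimates were negative. Cxcl10, a T cell attractant, had 8.92, 3.398 and 6.78 CPM in KO, against 23.2, 69.3 and 19.5 CPM in WT, and fell by 2.55 in log2 (SE 0.60, adjusted p = 0.0221). The next largest called falls were those of Ifit2, Ifit1 and Rsad2, with log2 fold changes of -1.904, -1.70 and -1.603. Without WT 2 the median was -0.44 and 5 of the 30 were called lower, beside 1160 of 13103 genes. The count was 3 without KO 1, beside 2665 of 13088 genes. It was 0 without KO 2 and 0 without KO 3, beside 1293 of 13054 and 1057 of 13051 genes. It was 3 without WT 1 and 17 without WT 3, beside 942 of 13073 and 1653 of 13120 genes. DESeq2 called 20 lower, beside 17.7% of all genes.

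Of 12 tested genes that answer interferon gamma, 7 fell (58.3%, beside 16.8% of all genes) and none was called higher; their median was -0.99 on the log2 scale. Gbp7, a guanylate-binding protein, had 28.3, 13.8 and 19.3 CPM in KO, against 67.4, 92.9 and 55.1 CPM in WT, and fell by 1.81 in log2 (SE 0.30, adjusted p = 0.00883). Iigp1, Gbp3 and Gbp2 fell by 1.83, 1.54 and 1.36 in log2. Without WT 2 the median was -0.67 and 5 were called lower, beside 1160 of all genes. Called lower were 1 without KO 2, 1 without KO 3 and 2 without WT 1, beside 1293, 1057 and 942 of all genes. In the median of centred log2 CPM, the interferon-stimulated genes stood at -0.13, -0.70 and -0.40 in KO libraries, against 0.16, 1.17 and -0.01 in WT libraries. The 10 loading members stood at -0.08, -0.31 and -0.04 in KO libraries, against -0.01, 0.43 and -0.02 in WT libraries. Both lists were lowest in KO 2 and highest in WT 2.

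**Figure D5:**
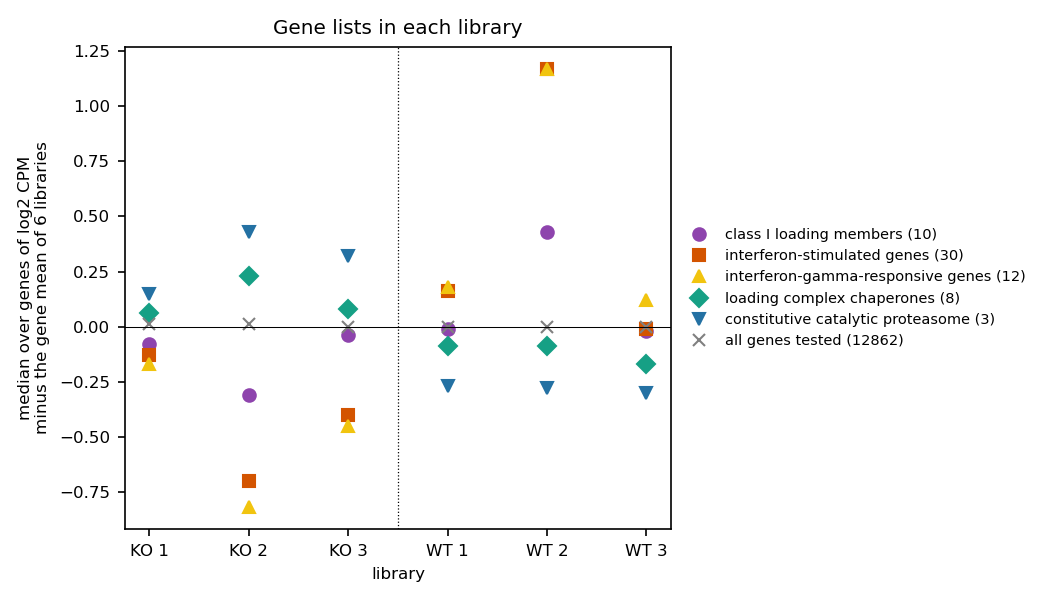
Median over the genes of a list of log2 CPM minus each gene's mean over the 6 libraries (vertical axis), for the 3 KO libraries (left) and the 3 WT libraries (right); the number of genes is in the legend. The loading members, like the 2 interferon lists, are lowest in KO 2 and highest in WT 2, over a smaller range, while the chaperones and the constitutive proteasome are higher in KO libraries than in WT libraries.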

How the data were processed

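Total RNA of the macrophages was sequenced from directional libraries, per the labels' protocols; 3 KO and 3 WT libraries were grouped by the genotype in the labels and numbered in sample order, which pairs nothing. The submitters' processing notes name DRAGEN, DESeq2 and the mm10 build but no version or role, and the sources used here give neither the annotation nor the strand setting. The authors deposited whole-number counts for 42256 genes, of which 42170 matched a symbol in GENCODE M21 (GRCm38, also called mm10). They also deposited a normalized signal, which per the file headers holds the same 6 samples and is the count of each gene over a factor of its own in each library, so the counts may be rounded estimates. Columns of no sample numbered 0.

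Genes were kept by filterByExpr (minimum count 10), scaled by TMM and tested KO against WT with the robust quasi-likelihood test of edgeR 4.0.16 in R 4.3.3, with Benjamini-Hochberg adjustment over all 12862 genes and a threshold of 0.05. Intervals are at 95%. CPM use TMM-scaled totals, and RPKM divide them by exon length. Ratios were tested over libraries by exact permutation. Replicates differed by more than sampling noise (chi-square per degree of freedom 11.7 to 48.8), so none was treated as a copy of another. Cdh11 failed the filter and was tested on its own row. The fit was also run on simulated counts with known changes, drawn gene by gene at a common dispersion. Such a run cannot speak to genes that shift together in a library, and its outcome is not used here. Alternatives were DESeq2 1.42.0, limma-voom and limma 3.58.1 on log2 of the deposited signal plus 1, other scalings, no filter on low counts, and leaving out each library; offsets from the gene-specific factors were added after the data were seen.

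Members and lists were chosen with earlier results of these data known. Named genes are all members, up to 4 called genes of each other list with the largest change, and the 5 genes nearest in profile to Nlrc5, Tap1 and H2-K1; of the interferon gamma list 14 of 15 genes were analysed here. Further genes were named after their values were seen.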

Additional observations from a re-analysis of the deposited data

How the results depend on the processing

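Of the 10 members, B2m, Tap1, Tap2 and Tapbp kept their direction and their side of the threshold under all 14 alternatives run for each gene. Among members called lower, DESeq2 counted 3, the gene-specific factors as offsets 2 and no filter on low counts 0, where Nlrc5 had -0.91 (adjusted p = 0.101); upper quartile scaling called 1 higher, Erap1 (0.195). H2-T23 was called by DESeq2 (-0.585), and Tapbpl by DESeq2 (-0.570) and with the offsets (-0.582). H2-D1 turned to 0.004 with upper quartile scaling, and the H2-K1 to B2m ratio to -0.002 with the deposited normalized values. In the other lists, the heavy chains called lower were 4 with DESeq2, 1 with limma-voom and 0 with upper quartile scaling. Immunoproteasome genes called higher were 2 with upper quartile scaling, and peptidases called higher 2 with no filter; peptidases called lower were 0 with the deposited values, the offsets or upper quartile scaling. Regulators called higher were 1 with library totals only and 2 with upper quartile scaling, and those called lower were 3 with the deposited values and 3 with the offsets. Cross-presentation genes called higher were 1 with DESeq2 size factors, the deposited values, the offsets, limma-voom or no filter. Interferon-stimulated genes called lower were 20 with DESeq2 and 1 with no filter, and interferon-gamma-responsive genes 2 with no filter. Over all genes, 17.7% were called lower with DESeq2, and 1963 of 21695 with no filter. The causes were not tested. Leaving out the filter brought low genes into the fit and the adjustment (21695 genes instead of 12862). Unadjusted p-values of edgeR moved as well, for H2-T23 from 0.043 to 0.092 and for Tap2 from 0.079 to 0.034.

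Leaving out each library in turn gave log2 fold changes of -1.038 to -0.617 for Nlrc5, -0.698 to -0.322 for Tapbpl, -0.155 to 0.045 for H2-K1 (0.028 without WT 2), -0.176 to 0.034 for H2-D1 (0.014 without WT 2) and -0.196 to 0.016 for the summed heavy chains (0.005 without WT 2). Ratio differences ran from -0.018 to 0.066 for H2-D1 to H2-K1 (-0.017 and -0.014 in 2 further cases), -0.020 to 0.089 for H2-K1 to B2m and -0.037 to 0.155 for H2-D1 to B2m. Counts called lower were 0 to 2 members, 0 to 2 further heavy chains, 2 to 4 class I-like chains, 0 to 2 peptidases, 1 to 6 regulators, 0 to 4 cross-presentation genes, 0 to 17 interferon-stimulated genes, 1 to 8 interferon-gamma-responsive genes and 942 to 2665 of all genes. Counts called higher were 0 to 1 further heavy chains, 0 to 1 class I-like chains, 2 to 4 chaperones, 1 to 2 immunoproteasome genes, 1 to 4 peptidases, 1 to 3 cross-presentation genes and 1037 to 2791 of all genes. A test with fewer libraries has less power. No paired analysis was possible because the labels give no numbers shared by the genotypes. At 462 to 870 counts a library, Tapbpl is the member with the fewest counts.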
